A study of Mus musculus with 9 samples.

Results

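Transcripts of 10 chemokines that gut epithelium is known to make were measured in intestinal epithelial cells (IECs) of the mouse colon: Cxcl1, Cxcl2, Cxcl5, Cxcl9, Cxcl10, Cxcl16, Ccl6, Ccl20, Ccl25 and Ccl28. They were taken by symbol from the 46095 rows of the deposited count table, in which all 10 were found, by a rule that names genes and no measured value. The libraries came from 4 mice labelled Smad4-knockout and 5 mice labelled Smad4-knockout;Setd2-knockout (double knockout below), and the comparison asks which chemokine transcripts differ once Setd2, the enzyme that trimethylates H3K36, is lost beside Smad4, the shared mediator of TGF-beta and BMP signalling. Both groups carried the Smad4 deletion, and no library of Smad4-intact mice enters the comparison. The floxed genes were deleted by Cre under the Villin promoter, which is active in intestinal epithelium along the small and large intestine and not in immune or stromal cells. All mice, on a C57BL/6J background, received the carcinogen AOM (10 mg/kg, at 8 weeks of age) and then 2% DSS, a polymer in the drinking water that injures the colonic epithelium, and IECs were released from the colon with EDTA at 10 days of AOM/DSS. Libraries are named S-1 to S-4 (Smad4-knockout) and DDKO-1 to DDKO-5 (double knockout) below.

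Total counts were 12487129 to 17120202 per Smad4-knockout library and 12729533 to 14637157 per double knockout library, and 1 count was worth 0.0593 to 0.0793 CPM (CPM are counts scaled to the library total and its TMM factor). Setd2 stood at 113 ± 9.44 CPM (SD over 4 libraries) in the Smad4-knockout and at 66.0 ± 14.7 CPM (SD over 5) in the double knockout, without overlap, while Smad4, deleted in both groups, stood at 64.1 ± 19.0 and 70.2 ± 34.3 CPM. Counts from Y-linked genes were 3857 to 4907 in DDKO-1, DDKO-2 and DDKO-5 and 0 to 28 in the other 6 libraries. Every library with such counts was therefore a double knockout, and sex and genotype cannot be told apart in them. DDKO-1 and DDKO-2 also had the lowest share of mitochondrial counts, 5.62% and 6.29% against 8.12% to 10.3% elsewhere, and the values without both of them are given beside the results that they change. Summed epithelial markers (11 genes, among them Krt8) were 17351 to 19637 CPM in Smad4-knockout and 15514 to 18775 CPM in double knockout libraries, and pan-leukocyte markers (Ptprc and 8 others) 109 to 178 and 85.5 to 202 CPM, so some leukocyte RNA was present in all 9. In such bulk samples fewer cells of a type and less RNA per cell cannot be told apart.

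Chemokines are small secreted proteins that set the direction in which leukocytes move, and each acts through a few G protein-coupled receptors. Cxcl1, Cxcl2 and Cxcl5 attract neutrophils through Cxcr2 and are classical NF-kB targets. Cxcl9 and Cxcl10 are induced by interferon gamma and attract activated T cells through Cxcr3, and Cxcl16 is the ligand of Cxcr6. Ccl20 attracts cells with Ccr6 to lymphoid follicles. Ccl25 draws Ccr9-bearing lymphocytes to the small intestine, whereas Ccl28, the mucosal chemokine of colon and glands, acts on Ccr10-bearing plasma cells, and Ccl6 is a rodent CC chemokine related to Ccl9.

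Promoters are shown for the genes on which the results turn: Ccl25, the called gene, the pair Cxcl9 and Cxcl10, and the pair Cxcl1 and Cxcl2. Each runs from 250 bases before to 50 bases after the annotated start in RefSeq (GRCm38.p6) and is written 5′ to 3′ along the gene. Capitals mark matches on either strand to GGG NN TTTCC (an NF-kB-like site, with N for any base), TTTC NN TTTC (like an interferon-stimulated response element) or TATAAA. A 4th motif, TTC NNN GAA (like a gamma-activated site), had no match in the 9 promoter windows that the RefSeq table held for 8 of the 10 genes. Of 32851 promoters in the table, 1.63% held the NF-kB-like letters, 3.44% the response-element letters, 13.6% TATAAA and 8.30% the gamma-activated-site letters. Cxcl5 and Cxcl16 had no entry, and for Ccl25, which had 2, the downstream one, at the start of the principal transcript, is shown.
Ccl25 promoter, chr8:4349338-4349637, plus strand: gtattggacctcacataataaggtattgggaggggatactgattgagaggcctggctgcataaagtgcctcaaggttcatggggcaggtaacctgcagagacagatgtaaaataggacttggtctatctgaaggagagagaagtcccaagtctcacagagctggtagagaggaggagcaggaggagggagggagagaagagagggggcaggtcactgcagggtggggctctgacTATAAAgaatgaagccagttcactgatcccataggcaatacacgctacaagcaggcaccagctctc
Cxcl9 promoter, chr5:92328030-92328329, minus strand: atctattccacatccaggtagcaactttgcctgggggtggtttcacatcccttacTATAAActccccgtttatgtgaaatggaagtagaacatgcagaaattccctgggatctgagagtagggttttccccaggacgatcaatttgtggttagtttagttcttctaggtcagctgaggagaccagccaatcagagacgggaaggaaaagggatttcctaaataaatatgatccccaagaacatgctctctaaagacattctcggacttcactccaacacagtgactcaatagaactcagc
Cxcl10 promoter, chr5:92348840-92349139, minus strand: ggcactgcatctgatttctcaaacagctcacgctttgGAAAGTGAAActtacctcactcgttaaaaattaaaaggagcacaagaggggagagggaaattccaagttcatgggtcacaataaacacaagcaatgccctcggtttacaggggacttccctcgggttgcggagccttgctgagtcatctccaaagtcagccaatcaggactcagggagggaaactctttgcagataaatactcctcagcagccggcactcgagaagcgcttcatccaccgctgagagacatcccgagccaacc
Cxcl1 promoter, chr5:90890995-90891294, plus strand: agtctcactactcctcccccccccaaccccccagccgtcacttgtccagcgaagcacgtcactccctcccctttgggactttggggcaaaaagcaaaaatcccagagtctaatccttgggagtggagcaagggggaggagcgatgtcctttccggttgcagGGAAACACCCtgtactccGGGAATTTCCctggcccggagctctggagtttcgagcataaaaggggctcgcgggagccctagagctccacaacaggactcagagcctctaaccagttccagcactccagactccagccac
Cxcl2 promoter, chr5:90903649-90903948, plus strand: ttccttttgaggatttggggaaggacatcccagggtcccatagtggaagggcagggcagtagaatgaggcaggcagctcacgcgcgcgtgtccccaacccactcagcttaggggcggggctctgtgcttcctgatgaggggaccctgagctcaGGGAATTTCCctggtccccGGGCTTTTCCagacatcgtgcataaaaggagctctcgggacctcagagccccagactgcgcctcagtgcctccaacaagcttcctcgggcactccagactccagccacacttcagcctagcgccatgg

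Cxcl1 and Cxcl2 lie side by side on chromosome 5 (chr5:90891245-90893121 and chr5:90903899-90905938, plus strand), 10777 bases apart, and each promoter held 2 NF-kB-like matches, at -89 and -71 in Cxcl1 and at -97 and -78 in Cxcl2, counted from the start. Ccl20 (chr1:83116766-83119167, plus strand) held 1 such match, at -80. The same chromosome carries Cxcl5 (chr5:90759298-90761625, plus strand) and, on the minus strand, Cxcl9 (chr5:92321331-92328079) and Cxcl10 (chr5:92346638-92348889), which are 18558 bases apart. Cxcl10 had a match to the response-element letters on the opposite strand at -213, and Cxcl9 had none of the interferon-type letters in its window. The printed Ccl25 promoter (gene at chr8:4325205-4360020, plus strand) had TATAAA at -16. Ccl6 (chr11:83587886-83593087, minus strand) and Ccl28 (chr13:119623819-119654359, plus strand) had no match to any of the 4 motifs. These matches describe letters in a window and no measured binding.

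Ccl6 and Ccl28 were the abundant chemokines of these colon IECs and the other 8 were low. Per kb of the principal transcript, the mean level in Smad4-knockout libraries was 253 CPM per kb for Ccl6 and 51.7 for Ccl28. Next came Ccl20 at 6.85, Cxcl10 at 4.17, Ccl25 at 2.85, Cxcl1 at 2.01, Cxcl9 at 1.76, Cxcl2 at 1.40, Cxcl5 at 0.509 and Cxcl16 at 0.0344 CPM per kb. The ranges of Ccl6 and Ccl28 overlapped with no other chemokine, from Ccl20 to Cxcl5 each neighbour's range overlapped the next, and Cxcl16 lay below all. In the double knockout Ccl25 moved from the 5th to the 3rd place, at 29.2 CPM per kb, with a range (13.8 to 48.3) that reached into that of Ccl28 (28.3 to 51.7). Cxcl10 (15.6), Ccl20 (4.45), Cxcl9 (3.74), Cxcl2 (3.21), Cxcl1 (1.64), Cxcl5 (0.435) and Cxcl16 (0.168) followed, with overlapping neighbours. The order depends on the transcript used for length, since over all annotated exons Ccl25 stood at 4.14 CPM per kb in the double knockout, below Cxcl10 at 7.59.

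**Figure D1:**
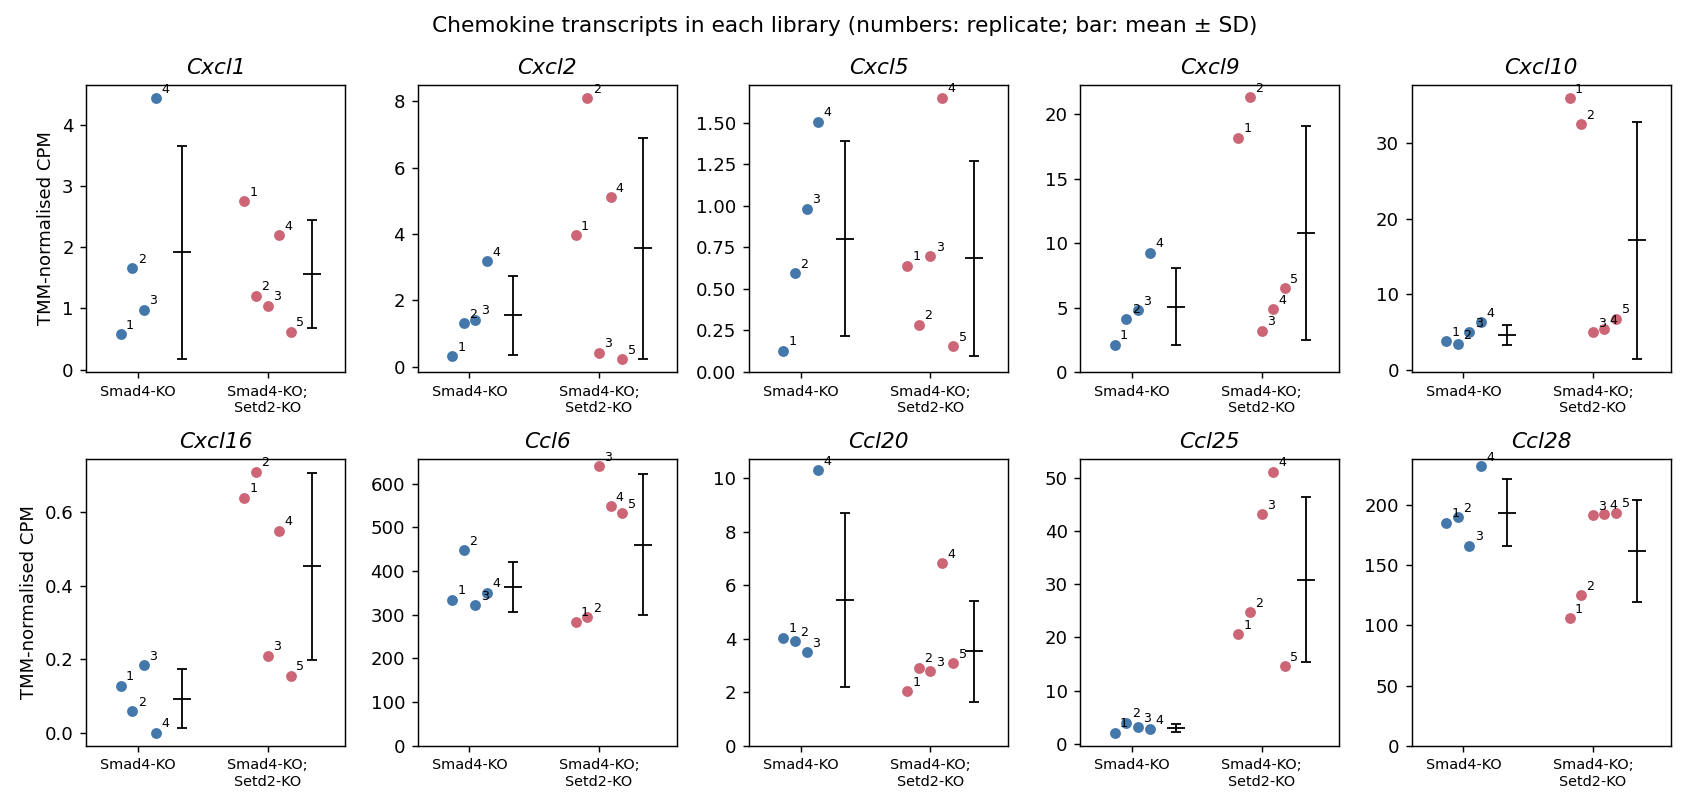
TMM-normalised CPM (linear axes, one per gene) of the 10 chemokines in each library, with points numbered by replicate and bars for the mean ± SD of 4 Smad4-knockout and 5 double knockout libraries. Ccl25 separates the groups, while Cxcl9 and Cxcl10 are high only in double knockout replicates 1 and 2, the libraries in which Ccl6 and Ccl28 are lowest in that group.

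Of the 10 chemokines, 9 passed the filter on low counts, and 1 of these, Ccl25, was called, that is, had an adjusted p below 0.05 (edgeR, quasi-likelihood F-test, Benjamini-Hochberg adjustment across 14593 genes). It was higher in the double knockout, none was lower, and 8 were not called. Across all tested genes 13.3% were called, 6.76% higher and 6.54% lower, so that 1 of 9 is near the background. The median log2 fold change of the 9 was 0.34, with 5 values above 0, beside a median of -0.00 over all genes. By the looser rule of a fold over 1.5 with an unadjusted p under 0.05, which 13.8% of genes met (7.54% higher, 6.24% lower), Cxcl10 joined Ccl25 and none was lower. An unadjusted p under 0.05 alone was met by 30.6% of genes. Ccl25 was also the 1 tested chemokine whose groups did not overlap with the double knockout above (8.34% of all genes), and for none did it lie below (8.87%).

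**Figure D2:**
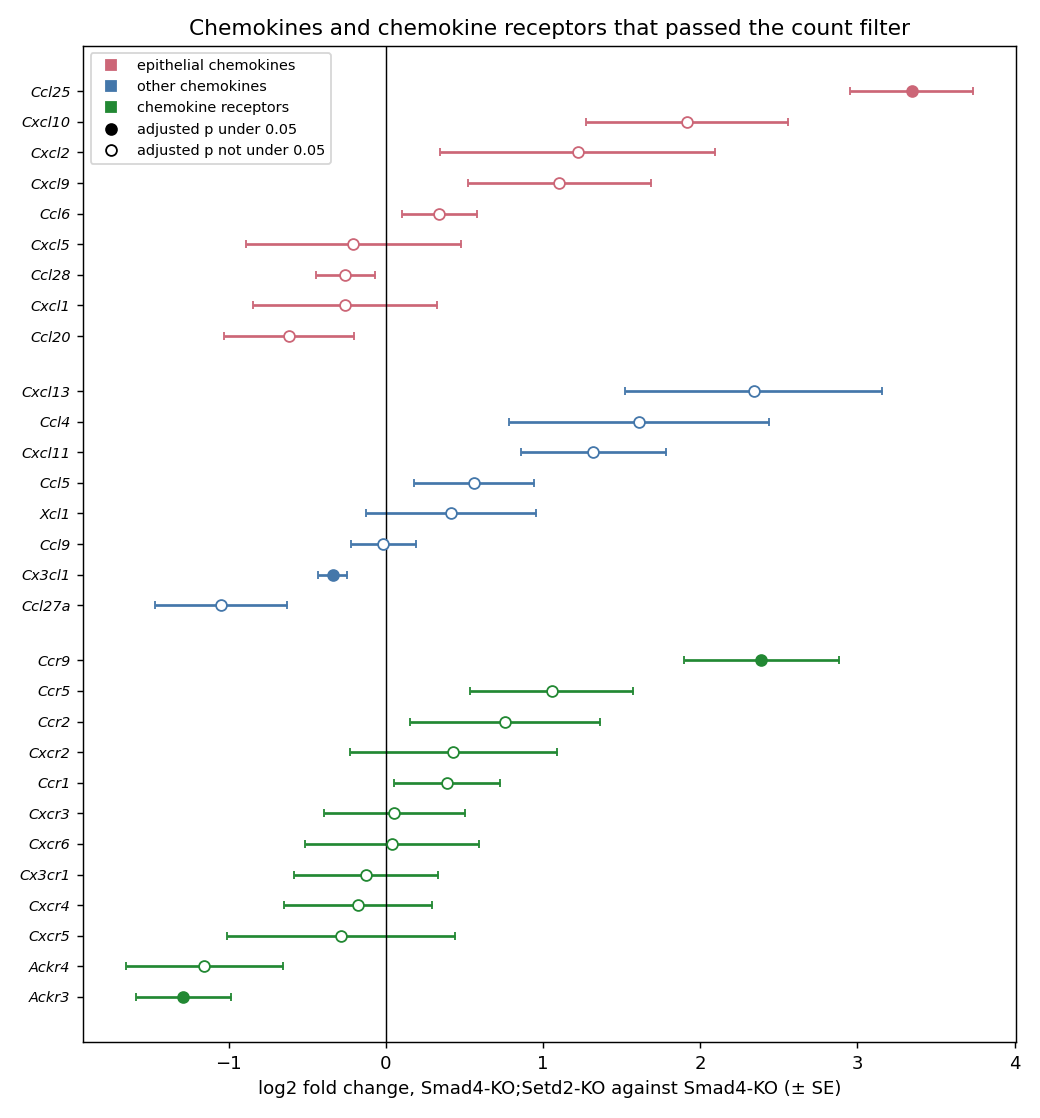
Log2 fold change (double knockout against Smad4-knockout, ± SE, edgeR) of the 9 tested epithelial chemokines, 8 other chemokines and 12 chemokine receptors, with filled points for an adjusted p under 0.05. Filled points are Ccl25 at 3.35, Cx3cl1 at -0.34, Ccr9 at 2.39 and Ackr3 at -1.29.

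Ccl25, the chemokine that is normally a product of small-intestinal epithelium, was the clearest difference. It stood at 2.11, 3.97, 3.19 and 2.77 CPM in S-1 to S-4 (33 to 67 counts) and at 20.6, 24.8, 43.1, 51.1 and 14.6 CPM in DDKO-1 to DDKO-5 (189 to 651 counts). Every double knockout library was far above every Smad4-knockout library, with the lowest, DDKO-5, still above the highest of the other group. The mean was 3.01 ± 0.779 CPM over 4 libraries and 30.9 ± 15.5 CPM over 5 (SD). It rose by 3.35 (SE 0.39) on the log2 scale, or 10.2-fold, with an adjusted p of 0.000779 in edgeR's test. The call held in all 20 other settings tried, over which the log2 fold change was 3.10 to 3.96. Without DDKO-1 and DDKO-2 it was 3.59. Of its exon bases, 2.74% are shared with Elavl1 on the opposite strand.

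Ccr9, the receptor of Ccl25, rose as well. Its CPM was 0.320, 0.712, 0.613 and 0.793 in S-1 to S-4 and 3.84, 3.91, 3.49, 4.08 and 0.697 in DDKO-1 to DDKO-5. The first 4 double knockout libraries lay above all Smad4-knockout libraries and DDKO-5 lay among them. The log2 fold change was 2.39 (SE 0.49, adjusted p = 0.0117 in edgeR's test), and the call held with each library left out in turn. In Ccr9, 18.8% of the exon bases are shared with the opposite-strand annotation AC165425.1. The summed T cell markers were likewise lowest in DDKO-5 (34.8 CPM). They were at 119 to 164 CPM in the other double knockout libraries and at 46.0 to 87.5 CPM in Smad4-knockout libraries. That difference had an exact permutation p of 0.0635 (two-sided). Of 9 T cell markers tested, 7 had a positive log2 fold change, with a median of 0.48 over the 9. Called higher were 2, the granzymes Gzma (log2 fold change 1.77) and Gzmb (1.94). At 38.3 and 38.4 CPM these granzymes made up most of the mean double knockout sum of 123 CPM. Cd3e, a chain of the T cell receptor complex, had a log2 fold change of -0.07 and stood at 4.53 ± 1.30 and 4.31 ± 2.34 CPM. The part of T cell RNA in the Ccr9 difference was not tested. Without S-1 or S-3 the call of Gzma was lost. That of Gzmb was lost in 10 of the 20 other settings, among them without S-1 to S-4, DDKO-1, DDKO-2 or DDKO-4. The log2 fold change of Gzmb was 1.17 (adjusted p = 0.112) without DDKO-1 and DDKO-2 together.

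Other genes of small-intestinal enterocytes moved with Ccl25. Of a list of 17 such genes, 13 were tested, 9 rose and none fell, and the median log2 fold change was 2.20. The call of Anpep was lost in 11 of the 20 other settings. Among these were the fits without S-1 to S-4, DDKO-1, DDKO-2 or DDKO-4 and without DDKO-1 and DDKO-2 together (1.49, adjusted p = 0.118). The call of Rbp2 was lost in 4 of the 20, among them without S-2, S-3 or S-4. Sis, the sucrase-isomaltase of the brush border, rose from 2.77 ± 3.23 to 155 ± 85.4 CPM (log2 fold change 5.75, adjusted p = 0.000985 in edgeR's test). Its CPM was 0.448 to 7.42 in Smad4-knockout libraries and 85.2 to 278 in double knockout libraries, and without S-2, the highest of the first group, the log2 fold change was 6.93. Slc10a2, the ileal bile acid transporter, rose from 18.5 ± 9.44 to 204 ± 90.4 CPM, and Enpep, a brush-border aminopeptidase, from 1.16 ± 0.623 to 65.3 ± 37.6 CPM. Gata4, a transcription factor of the proximal small intestine, was called higher, at 0.241 ± 0.0844 and 1.15 ± 0.570 CPM. It was near the low end of detection, at 0.159 to 0.320 CPM in Smad4-knockout libraries and at most 25 counts in any library. The size of its difference is therefore uncertain. Gata4 could be tested in only 14 of the other settings, among them 5 of the fits that left out a single library. Its call held in these.

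Summed over the list, small-intestinal markers were at 628 to 707 CPM in Smad4-knockout libraries and at 1423, 1850, 1194, 1733 and 867 CPM in DDKO-1 to DDKO-5, lowest in DDKO-5 as for Ccl25 and Ccr9. Fabp2, Slc5a1 and Apob, none of them called, made up most of the Smad4-knockout sums, with means of 214, 189 and 188 CPM. The difference between the groups in this sum had an exact permutation p of 0.0159 over 126 splits (two-sided, smallest possible 0.00794). After Benjamini-Hochberg adjustment over 13 such sums it was 0.103. Under this adjustment even the smallest possible p, reached by 1 sum alone, would not fall under 0.05, so the adjusted value decides nothing. Of 13 tested colonocyte genes, 4 fell and none rose, with a median log2 fold change of -0.46. Of these calls, those of Hoxb13 and Slc37a2 were each lost in 8 of the 20 other settings. For Hoxb13 these included the fits without S-1, S-3, S-4, DDKO-2, DDKO-3 or DDKO-4 and without DDKO-1 and DDKO-2 together (-0.59, adjusted p = 0.0587). For Slc37a2 they included those without S-1, S-3, S-4, DDKO-3 or DDKO-4. Among the fallen genes, the posterior gene Hoxd13 went from 80.2 ± 17.1 to 41.5 ± 11.8 CPM (log2 fold change -0.95). The colonocyte sum was 20186 to 22731 CPM in Smad4-knockout and 12677 to 19952 CPM in double knockout libraries, without overlap. Its exact permutation p was 0.0238 (two-sided), or 0.103 after the same adjustment. Colonic markers stayed abundant in all 9 libraries. Secretory cell markers moved as well. Of 7 such genes tested, Muc2, the main mucin of goblet cells, fell from 6133 ± 1251 to 1999 ± 443 CPM (log2 fold change -1.62), the enteroendocrine granins Chga and Chgb rose by 1.87 and 1.58 on the log2 scale, and 4 were not called. Their sum was 8541 to 26136 CPM in Smad4-knockout and 2573 to 9764 CPM in double knockout libraries. Its exact permutation p was 0.0238 (two-sided), or 0.103 adjusted. Most of it was Muc2 and Clca1, and Clca1 (6900 ± 6079 and 2358 ± 2579 CPM) was not called. The parts of another gut region and of secretory cells in the Ccl25 difference were not tested.

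**Figure D3:**
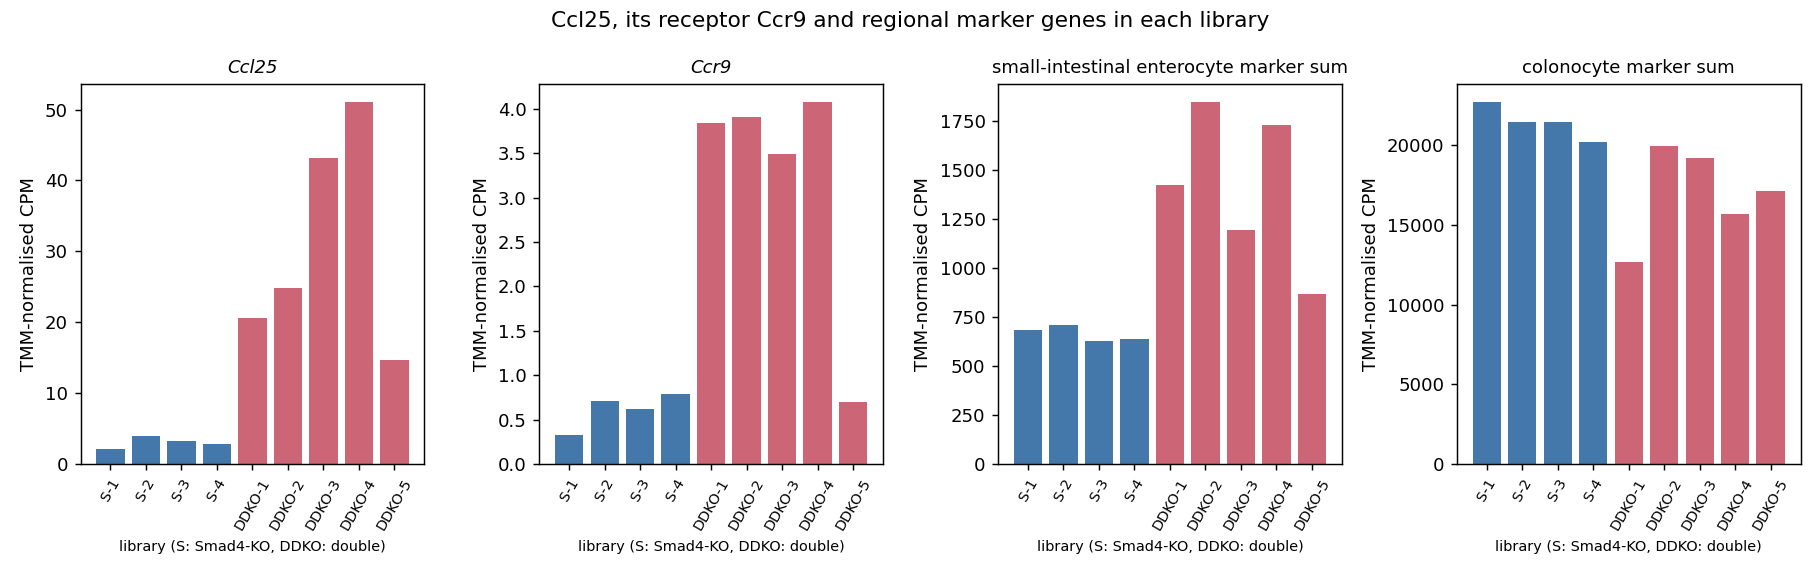
TMM-normalised CPM of Ccl25, Ccr9 and the summed small-intestinal enterocyte and colonocyte markers in each library (bars from 0, 4 Smad4-knockout libraries in blue, 5 double knockout libraries in red). Ccl25, Ccr9 and the small-intestinal sum are each lowest in DDKO-5 among the double knockout libraries, at 14.6, 0.697 and 867 CPM.

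The tested genes whose log2 CPM followed that of Ccl25 most closely over the 9 libraries were A930004D18Rik (Pearson's r = 0.994), Bcl2l15 (0.992) and Abca8b (0.986). All 9 points fall into the groups that separate Ccl25 itself, so these values describe likeness and carry no test. Bcl2l15, a member of the Bcl2 family, stood at 0.129 ± 0.129 and 4.44 ± 2.28 CPM, and Abca8b, an ABC transporter, at 0.150 ± 0.183 and 6.45 ± 4.31 CPM.

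Of 5 genes that process chemokines or release them, Dpp4 rose and the other 4 were not called. Dpp4 is the brush-border peptidase that trims the amino end of Cxcl9 and Cxcl10, and it rose from 73.4 ± 7.86 to 101.7 ± 8.13 CPM (log2 fold change 0.47, adjusted p = 0.00956 in edgeR's test), without overlap. Adam10, the sheddase of Cxcl16, stood at 217 ± 21.1 and 236 ± 17.2 CPM.

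Ccl28, the colonic counterpart of Ccl25, did not differ beyond the spread between libraries. Its CPM was 185, 189.6, 166 and 232 in S-1 to S-4 and 106, 125, 192, 192 and 193 in DDKO-1 to DDKO-5. DDKO-1 and DDKO-2 were below all other libraries, and DDKO-3 to DDKO-5 lay within the range of the Smad4-knockout group. The means were 193 ± 27.8 and 162 ± 42.6 CPM, with a log2 fold change of -0.26 (SE 0.19, adjusted p = 0.371 in edgeR's test). Without DDKO-1 and DDKO-2 it was -0.00 (SE 0.10, adjusted p = 0.998). Its receptor Ccr10 had 0 to 6 counts in every library and was not tested.

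Ccl6, the most abundant chemokine here, had its lowest and its highest values in the double knockout. It was at 335, 448, 323 and 350.3 CPM in S-1 to S-4 and at 284, 295, 639.6, 549 and 533 CPM in DDKO-1 to DDKO-5. DDKO-1 and DDKO-2 were below every Smad4-knockout library and DDKO-3 to DDKO-5 above every one. Over all libraries the means were 364 ± 57.2 and 460.2 ± 161 CPM, with a log2 fold change of 0.34 (SE 0.24, adjusted p = 0.359 in edgeR's test). Without DDKO-1 and DDKO-2 the mean of the remaining 3 was 574 ± 57.4 CPM, the log2 fold change 0.66 (SE 0.12) and the adjusted p 0.00772 in edgeR's test, and with only the libraries lacking Y-linked counts it was 0.71 (adjusted p = 0.00676). The call of Ccl6 thus rests on which double knockout libraries enter, and the fit without DDKO-1 and DDKO-2 was added after the values were seen.

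The pair of interferon-inducible chemokines, Cxcl9 and Cxcl10, was high in DDKO-1 and DDKO-2 and near the Smad4-knockout level in the other 3 double knockout libraries. Cxcl10 was at 3.71, 3.32, 4.97 and 6.26 CPM in S-1 to S-4 and at 36.0, 32.5, 4.96, 5.34 and 6.74 CPM in DDKO-1 to DDKO-5. Cxcl9 was at 2.11, 4.15, 4.78 and 9.27 CPM in S-1 to S-4 and at 18.2, 21.3, 3.21, 4.87 and 6.50 CPM in DDKO-1 to DDKO-5. For both genes DDKO-3 and DDKO-4 lay inside the range of the Smad4-knockout group, and the groups overlapped.

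The mean of Cxcl10 was 4.57 ± 1.33 CPM (SD, n = 4) and 17.1 ± 15.7 CPM (SD, n = 5), with a log2 fold change of 1.91 (SE 0.64, adjusted p = 0.0738 in edgeR's test). That of Cxcl9 was 5.08 ± 3.02 and 10.8 ± 8.31 CPM, with 1.10 (SE 0.59, adjusted p = 0.226). Neither passed the threshold. Cxcl10 passed it in 4 of the 20 other settings, namely with DESeq2 (adjusted p = 0.0408), without the filter (0.0450), and without DDKO-3 (0.0465) or DDKO-5 (0.0424). With limma-voom, which weights libraries by quality, its log2 fold change was 0.86 (adjusted p = 0.231). With a term for Y-linked counts the log2 fold change of Cxcl10 was 0.18 and that of Cxcl9 turned to -0.32 (adjusted p = 0.868 and 0.765). Without DDKO-1 and DDKO-2, Cxcl10 was at 0.32 (adjusted p = 0.411) and Cxcl9 at -0.05 (0.951).

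Cxcl11, the 3rd Cxcr3 ligand, which lies beside Cxcl10, had 0.534 to 0.981 CPM in Smad4-knockout libraries and 3.58, 3.05, 0.907, 1.65 and 1.01 CPM in DDKO-1 to DDKO-5 (log2 fold change 1.32, adjusted p = 0.0816 in edgeR's test). Of its exon bases, 41.7% are shared with the opposite-strand gene Gm2673, so its counts may hold reads of both. Cxcl11 was called with DESeq2 (adjusted p = 0.0465), without DDKO-3 (0.0489) and without DDKO-5 (0.0407), and without DDKO-1 and DDKO-2 its log2 fold change was 0.54 (adjusted p = 0.363). The receptor Cxcr3 was at 1.68 ± 0.602 CPM in the Smad4-knockout and 1.72 ± 1.04 CPM in the double knockout, with a log2 fold change of 0.05 (adjusted p = 0.950).

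Among 16 tested targets of interferon gamma, 14 had a positive log2 fold change and the median was 1.32, yet only Ido1, an enzyme of tryptophan breakdown, was called higher and none lower. Ido1 was at 7.56, 18.0, 14.96 and 16.3 CPM in S-1 to S-4 and at 82.5, 163, 23.7, 31.0 and 23.8 CPM in DDKO-1 to DDKO-5, without overlap (log2 fold change 2.19, adjusted p = 0.0357 in edgeR's test). Targets called higher numbered 4 without DDKO-3, and 2 without DDKO-4, without DDKO-5 and without the filter. The call of Ido1 was lost without S-1, S-2, S-3, S-4 or DDKO-1, with limma-voom (adjusted p = 0.0501), with robust dispersion (0.0727) and with a term for Y-linked counts (log2 fold change 0.95, adjusted p = 0.326). Without DDKO-1 and DDKO-2 together its log2 fold change was 0.89 (adjusted p = 0.0391). The summed targets were at 317, 364, 303 and 416 CPM in S-1 to S-4 and at 1276, 1666, 261, 349 and 596 CPM in DDKO-1 to DDKO-5, and their difference had an exact permutation p of 0.254 (two-sided). These sums were highest in the same libraries as Cxcl9 and Cxcl10, and the part of interferon signalling in the pair's levels was not tested. Of 11 genes that carry the interferon gamma signal, Irf8, a transcription factor, rose from 100.6 ± 12.7 to 165 ± 28.2 CPM (log2 fold change 0.72, adjusted p = 0.00706), and the other 10 were not called, among them the receptor chain Ifngr1 at 269 ± 18.4 and 259.5 ± 18.4 CPM. Genes of this list called higher numbered 3 with DESeq2 and without DDKO-3, and 2 with limma-voom and without DDKO-5.

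**Figure D4:**
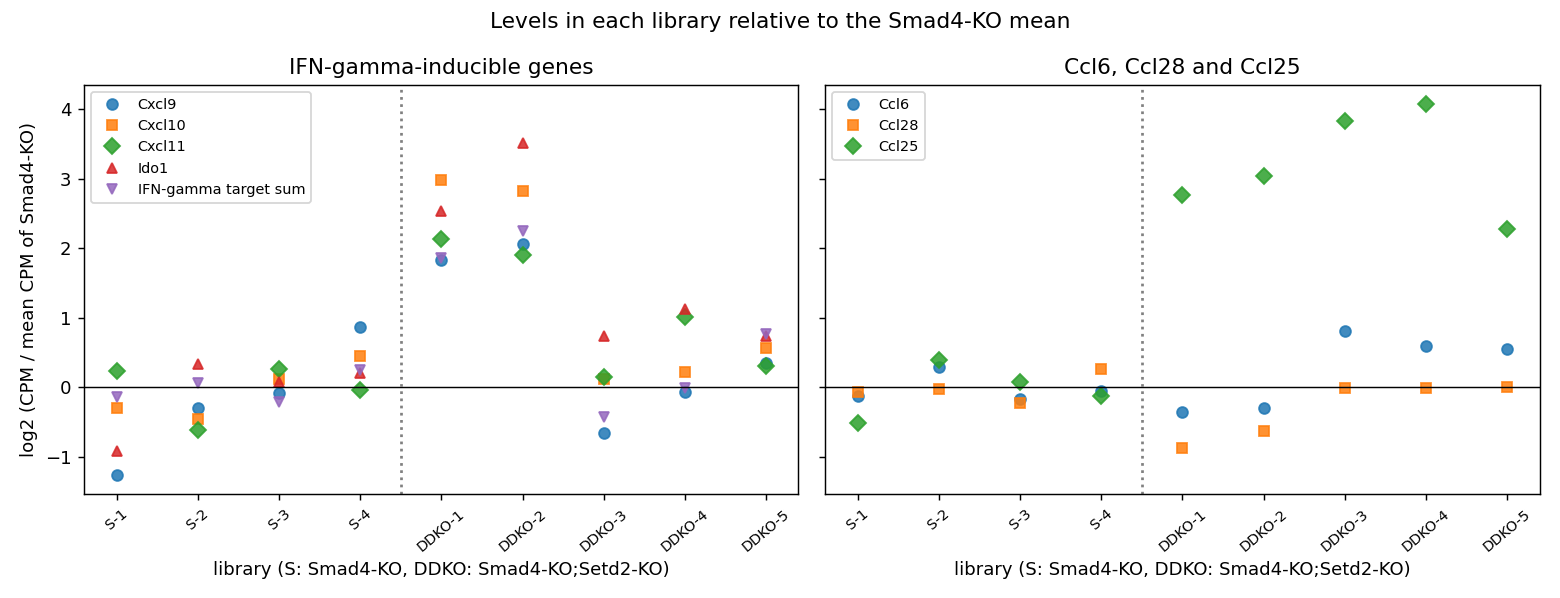
Log2 of the CPM in each library over the mean of the 4 Smad4-knockout libraries, for Cxcl9, Cxcl10, Cxcl11, Ido1 and the summed interferon gamma targets (left) and for Ccl6, Ccl28 and Ccl25 (right). DDKO-1 and DDKO-2 are highest on the left, where Cxcl10 is at 36.0 and 32.5 CPM, and lowest on the right for Ccl6 (284 and 295 CPM) and Ccl28 (106 and 125 CPM).

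Over the 9 libraries Pearson's r of log2 CPM was 0.91 for Cxcl9 with Cxcl10, and 0.90 once each group's mean had been removed. Cxcl1 correlated with Cxcl5 at 0.77 and with Cxcl2 at 0.70, while Cxcl2 correlated with Cxcl9 at 0.72, with Cxcl10 at 0.61 and with Cxcl5 at 0.52. Ccl20 and Ccl28 had an r of 0.72. Ccl6 and Ccl28 had an r of 0.59, or 0.87 within groups. Cxcl10 ran opposite to both within groups, at -0.96 with Ccl6 and -0.83 with Ccl28. These libraries share DDKO-1 and DDKO-2 as extreme points, and the values are descriptions.

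The neutrophil-attracting chemokines were near the low end of detection, and none was called. Cxcl1 had 9, 28, 16 and 56 counts in S-1 to S-4 and 43, 17, 15, 28 and 8 in DDKO-1 to DDKO-5, and its mean was 1.91 ± 1.74 and 1.56 ± 0.880 CPM (log2 fold change -0.26, SE 0.59, adjusted p = 0.797 in edgeR's test). Cxcl2 had 5, 22, 23 and 40 counts in S-1 to S-4 and 62, 114, 6, 65 and 3 in DDKO-1 to DDKO-5, with means of 1.55 ± 1.19 and 3.56 ± 3.32 CPM (1.22, SE 0.87, adjusted p = 0.367). Cxcl2 thus had both its highest and its lowest counts in the double knockout. Cxcl5 had 2, 10, 16 and 19 counts in S-1 to S-4 and 10, 4, 10, 21 and 2 in DDKO-1 to DDKO-5, with means of 0.802 ± 0.585 and 0.685 ± 0.586 CPM (-0.21, SE 0.68, adjusted p = 0.864). The direction of Cxcl1 and Cxcl5 was not stable, since without S-4 their log2 fold changes were 0.54 and 0.25, and that of Cxcl5 was 0.05 without DDKO-5. For all 3 genes the libraries of a group spread widely, and the groups overlapped.

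Their receptor Cxcr2 had 2 to 26 counts per library (log2 fold change 0.43, adjusted p = 0.694 in edgeR's test), and none of 6 tested neutrophil markers was called. Ly6g, the most abundant of them, was at 133 ± 27.5 CPM in the Smad4-knockout and 92.2 ± 32.9 CPM in the double knockout (-0.53 on the log2 scale, adjusted p = 0.160), S100a8 at 1.46 ± 1.41 and 3.54 ± 3.67 CPM, and the summed markers ran from 112 to 188 CPM in the Smad4-knockout and from 59.1 to 154 CPM in the double knockout. Ly6g makes up most of that sum, and the other 5 tested markers had log2 fold changes of 0.06 to 1.53. Of 30 tested genes of IL-17, TNF and NF-kB signalling, which drives these chemokines, 3 rose and 4 fell, with a median log2 fold change of -0.02. Il17re, the epithelial receptor chain for IL-17C, fell from 14.4 ± 1.72 to 7.10 ± 1.18 CPM (log2 fold change -1.02, adjusted p = 0.00293), without overlap. Tnfrsf1b, a TNF receptor, fell as well, with 48.3 to 83.5 CPM in the Smad4-knockout and 39.4 to 47.2 CPM in the double knockout (-0.66, adjusted p = 0.0128), and both were called in all 20 other settings. Nfkbiz, an inducible NF-kB cofactor, fell by 0.44 on the log2 scale and the cytokine Il18 by 0.96, while Chuk, a kinase that activates NF-kB, rose by 0.33, the flagellin receptor Tlr5 by 0.90 and the NF-kB inhibitor Nfkbia, which was named after its values were seen, by 0.62. Each of these last 5 calls was lost in 3 to 7 of the 9 fits that left out 1 library, which called 0 to 3 genes of the list higher and 2 to 5 lower. Nfkbia was at 0.33 (adjusted p = 0.0816) without DDKO-1 and DDKO-2 together.

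Of 16 other tested targets of IL-17 and NF-kB, 2 rose and none fell, with a median log2 fold change of -0.05, while 1 was called lower with limma-voom, with only the libraries lacking Y-linked counts, and without the filter, DDKO-1, or DDKO-1 and DDKO-2 together. The risen genes were the antimicrobial lectins Reg3b (341 ± 436 to 3896 ± 1735 CPM, log2 fold change 3.51, adjusted p = 0.0149 in edgeR's test) and Reg3g (2.80, adjusted p = 0.0278), both of which are most abundant in the small intestine. With robust dispersion 1 gene was called higher. The call of Reg3b was lost without S-3, and that of Reg3g without S-1, S-3, S-4 or DDKO-4, while without S-2 the log2 fold changes were 4.97 and 3.95. Lcn2, an iron-binding defence protein induced in the inflamed colon, stood at 2.59 ± 1.64 and 1.73 ± 1.43 CPM.

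Ccl20 was low in both groups, with 1 high library in each. Its CPM was 4.04, 3.92, 3.49 and 10.3 in S-1 to S-4 (57 to 130 counts) and 2.05, 2.91, 2.79, 6.83 and 3.10 in DDKO-1 to DDKO-5 (32 to 87 counts). Apart from S-4 and DDKO-4 the double knockout values lay below those of the Smad4-knockout group. The means were 5.44 ± 3.25 and 3.54 ± 1.88 CPM, with a log2 fold change of -0.62 (SE 0.41, adjusted p = 0.335 in edgeR's test). Without S-4 it was -0.12 and without DDKO-4 -0.99, and no setting gave a call. The receptor Ccr6 had 3 to 16 counts per library and was not tested.

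Cxcl16 (chr11:70454389-70459984, minus strand) was hardly detected. It had 2, 1, 3 and 0 counts in S-1 to S-4 and 10, 10, 3, 7 and 2 in DDKO-1 to DDKO-5, and the filter on low counts removed it. The Smad4-knockout libraries were at or under 3 counts, taken as the limit of detection, so no fold change is given. Without the filter its unadjusted p was 0.0117 and its adjusted p 0.104 in edgeR's test. Of its exon bases, 18.3% are shared with Zmynd15 on the opposite strand, and whether counting used strand is not given in the sources used here. Its receptor Cxcr6 stood at 3.44 ± 2.20 and 3.48 ± 2.54 CPM.

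Of 28 other chemokines, 8 passed the filter, none was called higher and 1 was called lower, with a median log2 fold change of 0.49. That one was Cx3cl1, a membrane-bound chemokine of epithelium and endothelium, which stood at 119.8, 108, 106 and 114 CPM in S-1 to S-4 and at 77.7, 84.7, 82.4, 97.4 and 99.7 CPM in DDKO-1 to DDKO-5. It fell from 111.8 ± 6.26 to 88.4 ± 9.64 CPM without overlap (log2 fold change -0.34, adjusted p = 0.0320 in edgeR's test). The call was lost in 10 of the 20 other settings. Among these were the fits without S-1, S-2, S-3, S-4, DDKO-1, DDKO-2 or DDKO-3 and without DDKO-1 and DDKO-2 together (-0.26, adjusted p = 0.0705). Other chemokines called higher numbered 2 with DESeq2 and without DDKO-5, and 1 with limma-voom, with only the libraries lacking Y-linked counts and without S-3 or DDKO-3. Another 10 of the 28 never exceeded 3 counts in any library. Of 12 tested chemokine receptors, Ccr9 rose, Ackr3 fell and 10 were not called, with a median of 0.05. Ackr3, a scavenger receptor that binds Cxcl11 and Cxcl12, had 50 to 64 counts in S-1 to S-4 and 11 to 35 in DDKO-1 to DDKO-5 and fell from 3.84 ± 0.187 to 1.56 ± 0.663 CPM (log2 fold change -1.29, adjusted p = 0.0200). Its call was lost in 3 of the 20 other settings, among them without S-1 or S-3. Without DDKO-5, 2 receptors were called higher.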

How the data were processed

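RNA-seq libraries of colon IECs from 4 Smad4-knockout and 5 double knockout mice were grouped by their genotype label. The authors deposited whole-number counts, 1 row per gene symbol and 1 column per mouse, neither normalised nor pooled. The submitters' processing notes name HISAT2 2.0 and mm10, and the counting program, annotation and strand setting are not given in the sources used here. Of 46095 rows, 27 had been turned into dates and stayed unnamed in the totals. Libraries of a group differed beyond sampling noise (chi-square per gene 10.01 or more), so all 9 counted as replicates. Sex and litter are not given in the labels.

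Genes were kept with filterByExpr by genotype (14593), scaled with TMM and tested on the counts with edgeR 4.0.16's quasi-likelihood test in R 4.3.3, with Benjamini-Hochberg adjustment and no covariates. SEs were obtained by dividing the size of the log2 fold change by the square root of F. Called means an adjusted p under 0.05. The biological coefficient of variation was 21.2%. Alternatives were DESeq2 1.42.0, limma 3.58.1 (voom), 2 other scalings, 2 other filters, robust dispersion, each library left out, a replicate block, and the Y-linked settings. The fit without DDKO-1 and DDKO-2 and the TATAAA motif were added once the data had been seen. The method was tested on simulated data. Marker sums were compared by exact permutation tests. Promoters came from RefSeq (GRCm38.p6) and transcript lengths from GENCODE.

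All 10 chemokines are named. Of each other list, compiled by hand, called genes were eligible (at most 6, smallest p first), as was the most abundant marker. The called genes Gata4, Rbp2, Anpep and Nfkbia ranked below that limit and were named with their values known. Further genes named as uncalled were chosen as known examples after their values were seen. The chemokines and lists were chosen with earlier results of these data known. Some genes that met the naming rule are not reported here. P-values cover the spread between these mice.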

Additional observations from a re-analysis of the deposited data

Results flagged for a closer look

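Among 20 groups of values tested for a library that stands apart (10 chemokines in 2 genotypes), 2 were flagged by Dixon's test, both for Ccl20, and chance alone flags about 1 group in 20. In the Smad4-knockout group S-4 had 10.3 CPM, with a gap to its nearest neighbour that was 0.921 of the group's range. In the double knockout group DDKO-4 had 6.83 CPM, with a gap of 0.781 of the range. The pan-leukocyte marker sum was also highest in these libraries within their groups, at 178 CPM in S-4 and 202 CPM in DDKO-4, and the B and plasma cell sum was 33.9 CPM in S-4 (14.2 to 39.9 CPM over its group) and 62.3 CPM in DDKO-4 (21.3 to 62.3 CPM). The part of leukocyte RNA in these Ccl20 values was not tested.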

How the results depend on the processing

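Of the results of the 9 tested chemokines over 20 other settings, 154 kept their direction and their side of the threshold, 6 gained a call, 13 changed sign and 0 lost a call. Chemokines called higher numbered 2 rather than 1 with DESeq2, without the filter (Cxcl10 beside Ccl25), with only the libraries without Y-linked counts and without DDKO-1 and DDKO-2 (Ccl6 beside Ccl25). Those past fold 1.5 with an unadjusted p under 0.05 numbered 1 with limma-voom and 4 without the filter. Over the whole table, genes called lower rose to 1523 with limma-voom and 1524 with only the libraries without Y-linked counts, and with a term for these counts 653 were called higher and 632 lower. Signs changed for Cxcl1 with limma-voom (0.0089) and for Cxcl5 with limma-voom (0.13), the Y-linked term (0.56), libraries without Y-linked counts alone (0.57) and without DDKO-1 and DDKO-2 (0.087). Cxcl9 turned to -0.32, -0.31 and -0.049 under these last 3 settings. Leaving out each library gave 455 to 1380 genes called higher and 392 to 1316 lower, 1 to 2 chemokines called higher and 0 lower, 2 to 3 higher and 0 to 1 lower by the fold rule, and log2 fold changes of -0.57 to 0.54 for Cxcl1 and -0.56 to 0.25 for Cxcl5.

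Samples with the same replicate number did not deviate together (correlations of -0.0955, -0.104, 0.0196 and 0.0878 for replicates 1 to 4). These values gave no sign of a pairing by number, but they cannot exclude a small shared effect, and the labels give no litter. With the replicate number as a block, and without DDKO-5, which has no partner, 1581 genes were called. Under this block Ccl25 was at 3.47 (adjusted p = 0.000749), Cxcl10 at 1.65 (0.157), and Cxcl1 and Cxcl5 turned to 0.14 and 0.083. The single-library losses were S-2, S-3 and S-4 for Nfkbiz, S-1, S-2, S-3 and DDKO-4 for Chuk, S-1, S-2, S-3, DDKO-3 and DDKO-4 for Tlr5, S-1 to S-4, DDKO-2 and DDKO-4 for Il18, and S-1 to S-4, DDKO-1, DDKO-2 and DDKO-4 for Nfkbia. With at least 10 counts in every library, 6 of the 10 chemokines could be tested. Counts of Cxcl16 did not exceed 10 and those of Cxcl5 did not exceed 21 in any library.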
